A study of Mus musculus with 15 samples.

Results

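The genes described here are 47 genes of ribosome biogenesis and Myc, chosen by symbol from a list. The list was made with earlier results of these data known, so its counts are descriptions. All 47 were among the 23244 gene entries of the expression table, and all 47 passed the filter on low values that left 13845 entries for testing. They fall into 7 roles, namely Myc factors (2 genes), RNA polymerase I and its partners (7), box C/D particle proteins (4), box H/ACA particle proteins (5), small subunit processing (12), large subunit processing (14) and nucleolar proteins (3).

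RNA-Seq was performed on 15 libraries of mouse optic tissue from SFEBq culture, in which dissociated embryonic stem cells reaggregate and form a neural epithelium. Every library came from 1 reporter line, EB5 Rx::GFP+/-, whose GFP marks cells expressing the eye field gene Rx. Each of 5 groups held 3 libraries: Day 10 Rx::GFP+ tissue that was dissected with forceps and collected at once, and explants collected at Day 12 or Day 15 after culture in retinal maturation medium. In the +Wnt condition CHIR99201, an inhibitor of GSK3, was added at 3 μM during the first 24 h and kept at 1 μM from then on, so a small molecule stood in for a Wnt ligand. The +Fgf explants received 5 ng/ml bFgf and 10% FBS, and since FBS was given in this condition only, effects of bFgf and of FBS cannot be told apart. No library of explants cultured without stimulation is among the 15. For Day 12 against Day 10 the stimulation therefore cannot be told apart from the time since dissection and the change of medium. The p-values measure the spread between libraries labelled as replicates, and no label says that they came from separate differentiations.

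A ribosome is made in the nucleolus. RNA polymerase I transcribes the ribosomal RNA precursor, small nucleolar RNA particles (box C/D and box H/ACA) modify it, and large sets of assembly factors fold and cut it into the small and large subunits. Myc and Mycn are transcription factors that bind E-box sequences at many of these genes, and cells that grow and divide fast express them highly.

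Levels are the authors' normalized values, called counts per-million (CPM), and groups are given as mean ± SD (n = 3). The libraries held between 12556998 and 16175450 reads on genes, and the lowest count of any of the 47 genes in a library was 85 reads (Myc in Day 15 +Wnt), so counting error was small. Differences are log2 differences of log2(CPM + 0.3) from 1 limma fit over all 15 libraries, and every p is limma's two-sided p with Benjamini-Hochberg adjustment over the 13845 genes, compared with 0.05. Markers of the tissues went with the labels. Summed over 6 optic progenitor and neural retina markers, the level in the +Fgf tissue of Day 15 was 2087 ± 42.9 CPM and in the +Wnt tissue 512 ± 23.6 CPM, whereas 7 pigment epithelium markers summed to 368 ± 36.1 and 5998 ± 765 CPM. In bulk tissue, fewer cells that express a gene and less of its RNA per cell cannot be told apart.

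Expression of the group was highest at Day 10 and lowest in Day 15 +Wnt. The 45 genes other than Myc and Mycn summed to 11238 ± 492 CPM in Day 10 Rx::GFP+, 8444 ± 532 CPM in Day 12 +Fgf, 7557 ± 52.5 CPM in Day 12 +Wnt, 5429 ± 237 CPM in Day 15 +Fgf tissue and 4933 ± 224 in Day 15 +Wnt tissue. These sums were 75.1, 67.2, 48.3 and 43.9% of the Day 10 sum, in the same order, and the range of the libraries overlapped only between the Day 15 groups. A large part of each sum came from the 3 nucleolar proteins, at 5240 ± 300 CPM at Day 10, 2374 ± 164 in Day 15 +Fgf and 2499 ± 109 in Day 15 +Wnt. Their libraries overlapped at Day 15 as well. In every other role without the Myc factors, the summed level of each Day 15 +Fgf library lay above those of Day 15 +Wnt. For the single gene, the median level was 75.4% of its Day 10 mean in Day 12 +Fgf (range over the 45 genes 58.4 to 109.5%), 63.3% in Day 12 +Wnt (33.1 to 109.0%), 49.5% in Day 15 +Fgf (30.1 to 101.9%) and 41.6% in Day 15 +Wnt (20.8 to 82.4%). Below 50% of the Day 10 mean lay 0 genes in Day 12 +Fgf, 6 in Day 12 +Wnt, 24 in Day 15 +Fgf and 35 in Day 15 +Wnt.

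**Figure D1:**
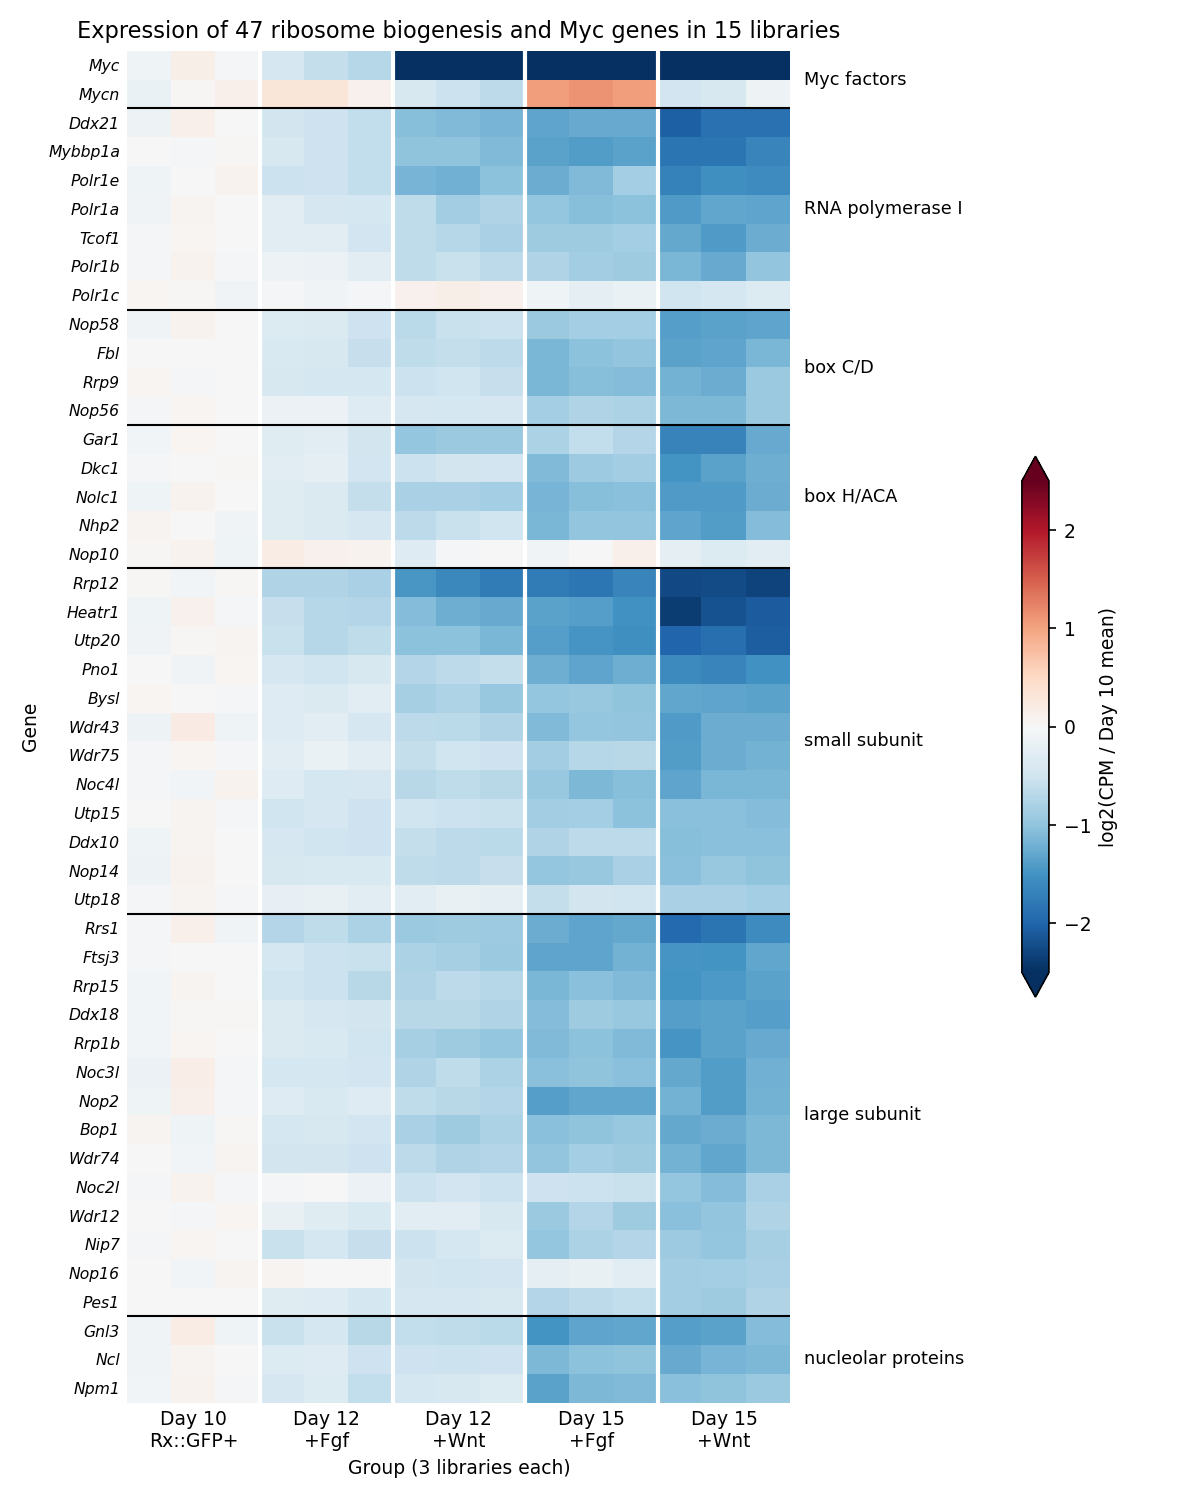
Expression of the 47 genes (rows, grouped by role) in the 15 libraries (columns, 3 for each group), as log2 of the CPM over the gene's Day 10 mean; blue is below and red above Day 10, and the colours end at 2.5 in either direction. Most rows darken from Day 12 +Fgf over Day 12 +Wnt to both Day 15 groups, while Mycn is highest in Day 15 +Fgf and Nop10 and Polr1c are at 82.4 and 74.4% of Day 10 in Day 15 +Wnt.

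Most of the group fell in each step of culture. From Day 10 to Day 12 +Fgf, 41 of the 47 genes fell and 1 rose (limma adjusted p under 0.05), where 27.8% of all tested genes fell and 27.9% rose, and their median log2 difference was -0.41. From Day 10 to Day 12 +Wnt, which uses the same Day 10 libraries, 45 fell and 1 rose, against 29.6 and 30.6% of all genes, with a median of -0.66. From Day 12 to Day 15, 44 fell and 1 rose in +Fgf tissue (29.9% of all genes fell and 27.2% rose; median -0.59), and 44 fell and 0 rose in +Wnt tissue (35.5% of all genes fell and 32.5% rose; median -0.58). Against Day 10, 45 were lower and 1 higher in Day 15 +Fgf (36.4% of all genes were lower and 36.2% higher; median -1.01), and 47 of 47 were lower in Day 15 +Wnt (40.2% of all genes were lower and 39.6% higher; median -1.27). Of all tested genes, 55.7, 60.2, 57.1, 68.0, 72.6 and 79.8% passed in either direction in these 6 comparisons. The median over all tested genes lay between -0.02 and 0.01 in the 4 steps. Group means ran from high to low in the order of the sums given above for 36 of the 47 genes (76.6%), against 8.35% of all tested genes.

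RNA quality differed along with the step from Day 12 to Day 15 in +Fgf tissue. RNA integrity numbers (RIN) were lowest in the Day 15 +Fgf libraries, the highest of which equalled the lowest Day 10 library, and with RIN as a covariate 33 of the 47 genes fell and 1 rose in this step, with a median log2 difference of -0.39 in place of -0.59. Over all tested genes the same fit called 12.4% lower and 13.6% higher, against 29.9 and 27.2% without the covariate. Members that passed in this step only without the covariate were Polr1e, Dkc1, Gar1, Utp18, Ddx10, Pes1, Wdr12, Wdr74, Nop16, Rrs1 and Nip7. The counts by role below are from the fit without RIN. The other 3 steps had between 41 and 46 of the 47 genes past the threshold over the 24 alternatives. The part of RNA quality in the fall was not tested in any other way.

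**Figure D2:**
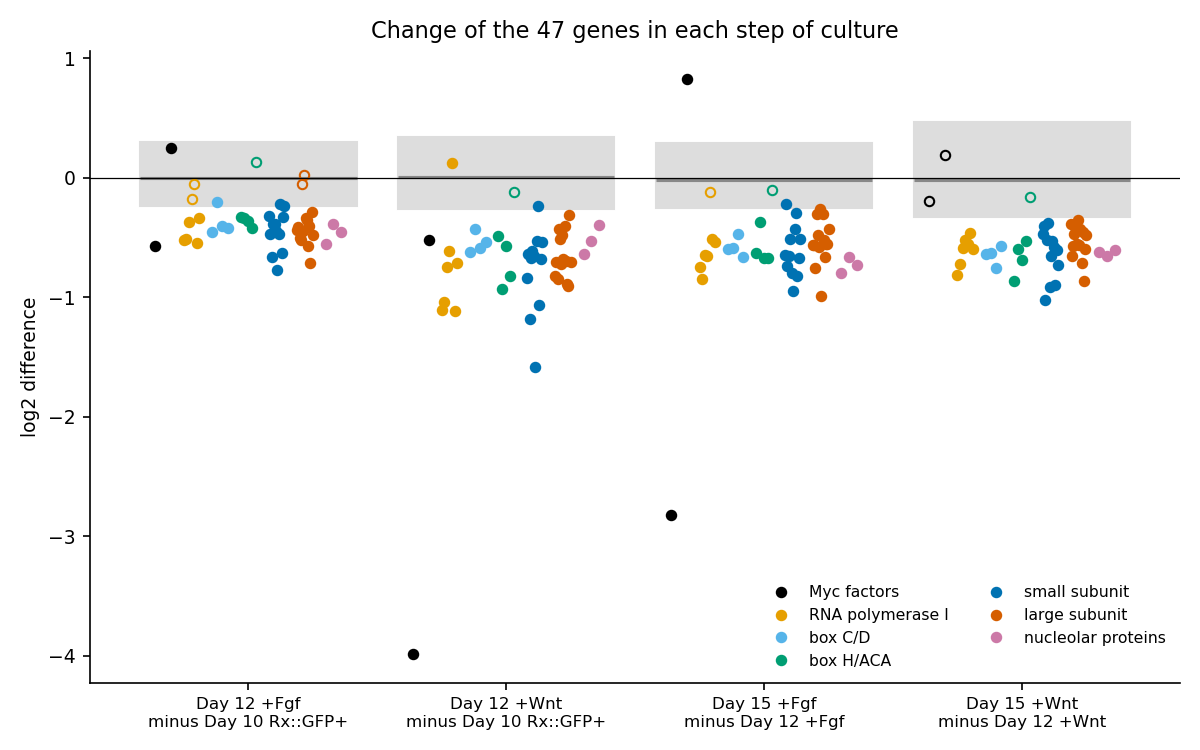
Log2 difference of each of the 47 genes (points, coloured by role) in the 4 steps of culture; filled points passed the limma test and open points did not, and the grey bar spans the middle quartiles of all 13845 tested genes with their median as a line. Most points lie below the grey bar, with medians of -0.41, -0.66, -0.59 and -0.58 from left to right.

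Myc was lower at Day 12 in both stimulations, far more so in +Wnt, and fell further to Day 15 in +Fgf. The gene (mm10, chr15:61985391-61990374, plus strand) was at 115, 137 and 121 CPM in the Day 10 Rx::GFP+ libraries, 93.5, 81.9 and 76.4 in Day 12 +Fgf, 7.61, 7.45 and 7.61 in Day 12 +Wnt, 10.0, 10.2 and 15.2 in Day 15 +Fgf and 5.27, 7.61 and 7.08 in Day 15 +Wnt. The Day 10 and Day 12 +Fgf libraries lay far above the other 9, and all 3 Day 12 +Wnt libraries were near the lowest values of the series. In Day 12 +Wnt, Myc was at 6.07% of its Day 10 mean, a log2 difference of -3.99 (SE 0.15, adjusted p = 7.61e-12). In Day 12 +Fgf it was at 67.4%, a log2 difference of -0.57 (SE 0.15, adjusted p = 0.00354). It then fell by 2.82 on the log2 scale in +Fgf tissue (SE 0.15, limma adjusted p = 1.69e-10), whereas its difference between Day 12 and Day 15 in +Wnt tissue did not pass the test, at -0.19 (SE 0.15, adjusted p = 0.256). The change from Day 12 to Day 15 differed between the stimulations by -2.63 (SE 0.21, adjusted p = 4.21e-08). Pluripotent cells also express Myc, and the sum of 5 of their markers was 52.9 ± 6.86 CPM at Day 10, 10.8 ± 6.78 in Day 12 +Fgf, 36.7 ± 17.7 in Day 12 +Wnt, 5.95 ± 7.83 in Day 15 +Fgf and 40.5 ± 25.2 in Day 15 +Wnt. The part of such cells in the level of Myc was not tested.

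Mycn, the neural paralogue (chr12:12936093-12941914, minus strand), went another way. It was at 57.6, 66.6 and 70.4 CPM in the Day 10 Rx::GFP+ libraries, 80.5, 80.5 and 70.1 in Day 12 +Fgf, 49.3, 44.5 and 41.2 in Day 12 +Wnt, 135, 140.5 and 134 in Day 15 +Fgf and 46.5, 49.0 and 59.4 in Day 15 +Wnt. The 3 Day 15 +Fgf libraries lay above all others, and both +Wnt groups overlapped each other. In +Fgf tissue Mycn rose from Day 12 to Day 15 by 0.82 (SE 0.09, adjusted p = 1.21e-06), and its Day 15 level was 209.9% of the Day 10 mean. In +Wnt tissue it fell from Day 10 to Day 12 by 0.52 on the log2 scale (SE 0.09, limma adjusted p = 0.000135), and the step to Day 15 gave 0.19 (SE 0.09, adjusted p = 0.0749). The small rise from Day 10 to Day 12 +Fgf, 0.25 (SE 0.09, adjusted p = 0.0303), did not pass with RIN as a covariate (0.04, limma adjusted p = 0.792) or without Day 10 replicate 1, Day 12 +Fgf replicate 1 or Day 12 +Fgf replicate 2 (0.17, 0.22 and 0.22). Per kb of exon, the level of Myc was 45.8 CPM at Day 10 against 19.7 for Mycn, and in Day 15 +Fgf the order was turned, 4.34 against 41.3.

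**Figure D3:**
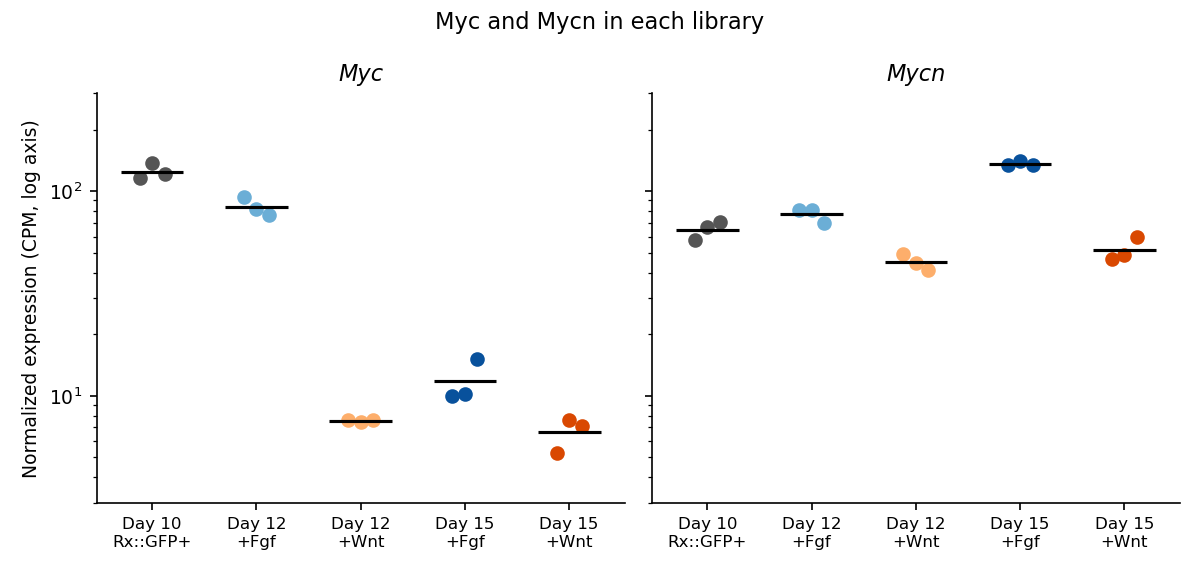
CPM of Myc and Mycn (log axis) in each of the 15 libraries (points), with the group mean as a bar. Myc drops from a mean of 124 CPM at Day 10 to 7.56 CPM in Day 12 +Wnt but 83.9 CPM in Day 12 +Fgf, and Mycn is highest in Day 15 +Fgf at 136 CPM.

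Since Myc proteins bind the E-box CACGTG, its letters were looked for in RefSeq promoter windows (GRCm38.p6) of 300 bases, 250 before and 50 from the start site on. The word reads the same on both strands. Windows were held for 40 of the 47 genes, and 7 of the 40 (17.5%) had a match, against 11.5% of the tested genes that had a window and 8.09% of all genes with one. No window was used for Bop1, Myc, Rrp12, Rrs1, Npm1, Fbl and Tcof1. The 7 matches are shown with the bases around them, 5′ to 3′ on the strand of the gene, with the E-box in capitals, because they are the places where the group carries the word:
Nop2: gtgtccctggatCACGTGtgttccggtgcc
Utp18: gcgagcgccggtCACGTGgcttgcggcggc
Pes1: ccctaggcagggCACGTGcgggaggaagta
Wdr43: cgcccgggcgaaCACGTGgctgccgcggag
Utp20: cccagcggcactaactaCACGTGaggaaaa
Pno1: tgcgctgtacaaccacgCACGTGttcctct
Mybbp1a: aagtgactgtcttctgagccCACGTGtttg
These stretches are chr6:125131811-125131840 (plus strand), chr11:93885769-93885798 (minus), chr11:3963965-3963994 (plus), chr17:71616220-71616249 (plus), chr10:88826765-88826794 (minus), chr11:17211540-17211569 (minus) and chr11:72441347-72441376 (plus), in the order of the lines. The word began 60 and 20 bases before the start site in Nop2 and Utp18, and 2, 17, 37, 37 and 40 bases after it in Pes1, Wdr43, Utp20, Pno1 and Mybbp1a. A match describes the letters of the window and not binding.

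The whole upstream window is given for both genes whose match lies before the start site, to show what surrounds it. That of Nop2, chr6:125131633-125131882, and that of Utp18, chr11:93885767-93886016, are 250 bases each.
Nop2: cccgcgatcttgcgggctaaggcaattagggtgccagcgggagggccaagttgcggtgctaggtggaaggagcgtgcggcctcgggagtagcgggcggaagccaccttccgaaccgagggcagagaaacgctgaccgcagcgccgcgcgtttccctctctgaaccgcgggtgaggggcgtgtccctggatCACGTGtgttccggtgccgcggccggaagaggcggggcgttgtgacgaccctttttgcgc
Utp18: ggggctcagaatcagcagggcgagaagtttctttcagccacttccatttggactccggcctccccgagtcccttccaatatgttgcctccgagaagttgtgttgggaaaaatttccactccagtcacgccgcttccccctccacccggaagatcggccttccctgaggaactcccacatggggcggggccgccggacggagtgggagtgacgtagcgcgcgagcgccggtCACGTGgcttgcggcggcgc
These genes behaved unlike each other. Nop2 fell from Day 12 to Day 15 by more in +Fgf than in +Wnt, and Utp18 by less, as described under the comparison of both stimulations.

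Among the 7 genes of RNA polymerase I and its partners, 5 fell to Day 12 +Fgf, 6 to Day 12 +Wnt, 6 from Day 12 to Day 15 in +Fgf and 7 in +Wnt. The summed level in Day 15 +Wnt was 34.6% of Day 10, the lowest share of the 6 roles without the Myc factors. Mybbp1a, which encodes a nucleolar Myb-binding protein that acts on ribosomal RNA transcription, was at 489, 477 and 497 CPM in the Day 10 Rx::GFP+ libraries, 367, 342 and 319.7 in Day 12 +Fgf, 244, 243 and 226 in Day 12 +Wnt, 194, 184 and 193 in Day 15 +Fgf and 138, 138 and 155 in Day 15 +Wnt. No 2 groups shared a value, and the largest fall among the 4 steps was that to Day 12 +Wnt, -1.04 (SE 0.05, adjusted p = 4.02e-10). Ddx21, an RNA helicase gene, and Polr1e, a subunit gene of the polymerase, fell by 1.11 each on the log2 scale in the same step. Polr1a and Polr1b, which encode the largest subunits, were -1.33 and -1.13 from Day 10 in Day 15 +Wnt on the log2 scale, and Tcof1, the gene of the nucleolar protein treacle, was -1.31. Polr1c differed from the rest. It encodes a subunit that RNA polymerases I and III share, and it was at 97.7, 96.0 and 89.0 CPM in the Day 10 Rx::GFP+ libraries, 91.0, 88.4 and 92.4 in Day 12 +Fgf, 102, 105 and 102 in Day 12 +Wnt, 87.7, 79.4 and 83.5 in Day 15 +Fgf and 66.8, 69.4 and 74.1 in Day 15 +Wnt. Its libraries of Day 10 and Day 12 +Fgf overlapped, and the Day 12 +Wnt libraries were all above them. The rise in Day 12 +Wnt, 0.13 (SE 0.05, adjusted p = 0.0457), was lost under 14 of 24 alternatives, with limma adjusted p of up to 0.205 (without Day 10 replicate 3, 0.08). Its fall from Day 12 to Day 15 in +Wnt was -0.55 (SE 0.05, adjusted p = 8.17e-08).

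The box C/D proteins bind the small nucleolar RNAs that guide methylation of ribosomal RNA, and all 4 fell in each of the 4 steps. Nop58, a core protein of the particle, was at 309.9, 351 and 329.7 CPM in the Day 10 Rx::GFP+ libraries, 261, 258 and 230.1 in Day 12 +Fgf, 207, 223 and 229 in Day 12 +Wnt, 173, 184 and 183 in Day 15 +Fgf and 127, 129.9 and 133 in Day 15 +Wnt. The groups did not overlap, and the Day 15 +Wnt level was 39.4% of the Day 10 mean. Fbl, the methyltransferase of the particle, Nop56 and Rrp9 lay between -1.27 and -1.06 from Day 10 in Day 15 +Wnt on the log2 scale. Exons of Nop56 and Nop58 overlap those of small nucleolar RNA or other small genes on the same strand, whose reads could have been counted with them.

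Of the 5 box H/ACA genes, whose particle turns uridine into pseudouridine, 4 fell in every step and Nop10 in none. With RIN as a covariate, Dkc1 and Gar1 did not pass from Day 12 to Day 15 in +Fgf. Nolc1, the gene of a nucleolar protein that binds these particles, was at 217, 250.2 and 235 CPM in the Day 10 Rx::GFP+ libraries, 189.9, 181 and 154 in Day 12 +Fgf, 133, 134 and 130.4 in Day 12 +Wnt, 104, 112 and 113 in Day 15 +Fgf and 87.8, 88.2 and 99.1 in Day 15 +Wnt. Its Day 12 +Fgf libraries lay below those of Day 10 and above those of Day 12 +Wnt. Gar1 showed the largest gap of this role between the stimulations, at 77.5, 83.8 and 81.5 CPM in the Day 10 Rx::GFP+ libraries, 65.9, 67.4 and 59.0 in Day 12 +Fgf, 41.6, 42.3 and 42.7 in Day 12 +Wnt, 46.5, 53.02 and 49.0 in Day 15 +Fgf and 25.3, 25.3 and 33.6 in Day 15 +Wnt. Each +Fgf group lay above both +Wnt groups, and Gar1 was higher in +Fgf by 0.60 (SE 0.09, adjusted p = 3.25e-05) at Day 12 and by 0.82 (SE 0.09, adjusted p = 4.37e-07) at Day 15. Dkc1, the pseudouridine synthase, and Nhp2 fell like the others, to -1.35 and -1.26 in Day 15 +Wnt against Day 10. Nop10, the smallest protein of the particle, was at 75.7, 79.0 and 68.8 CPM in the Day 10 Rx::GFP+ libraries, 84.7, 80.5 and 79.5 in Day 12 +Fgf, 59.3, 72.2 and 75.1 in Day 12 +Wnt, 70.6, 75.3 and 81.8 in Day 15 +Fgf and 64.1, 59.0 and 61.1 in Day 15 +Wnt. The Day 12 +Fgf libraries lay above those of Day 10 and of both +Wnt groups, the Day 15 +Wnt libraries lay below those of Day 10 and of both +Fgf groups, and the other groups overlapped. Its differences in the 4 steps lay between -0.16 and 0.13 with adjusted p between 0.0884 and 0.27 (limma). Against Day 10, Nop10 gave a log2 difference of 0.03 (SE 0.08, adjusted p = 0.775) in Day 15 +Fgf and -0.28 (SE 0.08, adjusted p = 0.00439) in Day 15 +Wnt (limma).

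All 12 genes of small subunit processing fell in every step. With RIN as a covariate, Ddx10 and Utp18 did not pass from Day 12 to Day 15 in +Fgf. The summed level of the role was 74.0% of Day 10 in Day 12 +Fgf, 59.7% in Day 12 +Wnt, 49.1% in Day 15 +Fgf and 38.7% in Day 15 +Wnt. Rrp12, which encodes a HEAT-repeat protein of subunit export, fell furthest of the 45 genes, at 73.9, 69.8 and 74.4 CPM in the Day 10 Rx::GFP+ libraries, 42.9, 43.2 and 41.2 in Day 12 +Fgf, 26.7, 23.9 and 21.6 in Day 12 +Wnt, 21.7, 20.9 and 23.2 in Day 15 +Fgf and 15.3, 15.4 and 14.6 in Day 15 +Wnt. The only overlap was between Day 12 +Wnt and Day 15 +Fgf, and the Day 15 +Wnt mean was 20.8% of that at Day 10, a log2 difference of -2.24 (SE 0.07, adjusted p = 9.83e-14). Heatr1, a scaffold of the small subunit processome, was at 122, 142 and 129.7 CPM in the Day 10 Rx::GFP+ libraries, 88.4, 80.5 and 79.1 in Day 12 +Fgf, 62.2, 56.6 and 54.7 in Day 12 +Wnt, 51.8, 50.3 and 46.1 in Day 15 +Fgf and 25.2, 28.9 and 31.0 in Day 15 +Wnt. Its Day 15 +Wnt libraries were below all others, at -2.20 (SE 0.08, adjusted p = 3.04e-13) from Day 10. Utp20, the gene of another very large processome protein, was at 141, 153 and 157 CPM in the Day 10 Rx::GFP+ libraries, 103, 92.3 and 96.4 in Day 12 +Fgf, 73.6, 74.0 and 67.9 in Day 12 +Wnt, 57.7, 54.0 and 52.3 in Day 15 +Fgf and 38.3, 40.7 and 36.2 in Day 15 +Wnt. No library of a group reached another group. Pno1, which binds the small subunit precursor, was at 99.3, 92.8 and 102 CPM in the Day 10 Rx::GFP+ libraries, 72.8, 68.9 and 74.0 in Day 12 +Fgf, 59.1, 62.3 and 64.5 in Day 12 +Wnt, 42.03, 39.4 and 42.1 in Day 15 +Fgf and 32.7, 31.2 and 34.2 in Day 15 +Wnt. No library of a group lay within the range of another, and the step from Day 12 to Day 15 gave -0.80 (SE 0.06, adjusted p = 5.61e-09) in +Fgf and -0.92 (SE 0.06, adjusted p = 5.47e-10) in +Wnt. Utp18 was the gene of this role nearest to its Day 10 level in Day 15 +Wnt, at -0.81 on the log2 scale. The others (Utp15, Wdr43, Wdr75, Nop14, Noc4l, Bysl and Ddx10) ended between -1.31 and -0.99 from Day 10 in Day 15 +Wnt.

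Of the 14 genes of large subunit processing, 12 fell to Day 12 +Fgf and all 14 in each of the other steps, and none rose. Nip7, Nop16, Pes1, Rrs1, Wdr12 and Wdr74 did not pass from Day 12 to Day 15 in +Fgf with RIN as a covariate. Ddx18, an RNA helicase gene, was at 173, 184 and 183 CPM in the Day 10 Rx::GFP+ libraries, 141, 135 and 130.2 in Day 12 +Fgf, 111, 112 and 107 in Day 12 +Wnt, 84.6, 96.6 and 93.8 in Day 15 +Fgf and 68.9, 70.9 and 68.9 in Day 15 +Wnt. The 5 groups did not overlap. Rrs1, an assembly factor gene, was at 111, 124 and 108 CPM in the Day 10 Rx::GFP+ libraries, 68.8, 73.1 and 65.9 in Day 12 +Fgf, 59.9, 62.0 and 60.6 in Day 12 +Wnt, 48.6, 45.8 and 47.1 in Day 15 +Fgf and 29.8, 32.3 and 38.4 in Day 15 +Wnt. It had the largest fall of this role to Day 12 +Fgf, -0.72 (SE 0.08, adjusted p = 1e-06), and to Day 12 +Wnt, -0.90 (SE 0.08, adjusted p = 5.76e-08). Nop2, a ribosomal RNA methyltransferase gene, was at 117, 137 and 123 CPM in the Day 10 Rx::GFP+ libraries, 101, 96.8 and 100.1 in Day 12 +Fgf, 81.5, 77.5 and 75.3 in Day 12 +Wnt, 48.2, 51.0 and 50.8 in Day 15 +Fgf and 55.7, 47.7 and 55.3 in Day 15 +Wnt. Here the Day 15 groups overlapped, and the fall from Day 12 to Day 15 was larger in +Fgf, -0.99 (SE 0.06, adjusted p = 2.63e-09), than in +Wnt, -0.56 (SE 0.06, adjusted p = 9.16e-07). Noc2l and Nop16 did not pass in Day 12 +Fgf (-0.05 and 0.02 from Day 10 on the log2 scale, limma adjusted p = 0.501 and 0.739) but were lower in Day 12 +Wnt, at -0.51 and -0.48. Pes1, Bop1 and Wdr12 form 1 complex, and their Day 15 +Wnt values from Day 10 were -0.84, -1.21 and -0.92. Wdr74, Noc3l, Rrp1b, Rrp15, Nip7 and Ftsj3 were between -1.42 and -0.90.

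Npm1 and Ncl, 2 of the 3 nucleolar proteins, were the most abundant genes of the group, and the sum of this role was 45.3% of Day 10 in Day 15 +Fgf and 47.7% in Day 15 +Wnt. Npm1 (nucleophosmin), a histone and ribosome chaperone, held 1196 CPM per kb of exon at Day 10, and Ncl (nucleolin) followed with 183 CPM per kb. Npm1 was at 3045, 3384 and 3137 CPM in the Day 10 Rx::GFP+ libraries, 2395, 2516 and 2079 in Day 12 +Fgf, 2359, 2420 and 2505 in Day 12 +Wnt, 1261, 1458 and 1483 in Day 15 +Fgf and 1537, 1588 and 1666 in Day 15 +Wnt. It fell in all 4 steps, and in Day 15 the +Fgf libraries lay below the +Wnt libraries, a log2 difference of -0.19 (SE 0.07, adjusted p = 0.0246). With RIN as a covariate this difference turned to 0.05 (limma adjusted p = 0.763), and it did not pass without Day 15 +Fgf replicate 1 (-0.12) or Day 15 +Wnt replicate 3 (-0.16). Ncl was at 1744, 1962 and 1881 CPM in the Day 10 Rx::GFP+ libraries, 1475, 1500 and 1308 in Day 12 +Fgf, 1298, 1285 and 1292 in Day 12 +Wnt, 857, 921 and 923 in Day 15 +Fgf and 781, 834 and 855 in Day 15 +Wnt. It fell by 0.66 on the log2 scale from Day 12 to Day 15 in +Fgf and by 0.65 in +Wnt, and at Day 15 the gap between the stimulations was 0.13 (SE 0.06, adjusted p = 0.0521). Gnl3 (nucleostemin) fell in all steps as well, by between 0.56 and 0.80. Npm1 has many processed copies in the genome, so its reads could have been divided among them in the counting, and exons of Ncl and Gnl3 overlap those of small nucleolar RNA genes.

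Both stimulations were next compared at the same day. At Day 12, 35 of the 47 genes were higher in +Fgf and 1 (Polr1c) was lower (limma), where 26.3% of all tested genes were higher and 25.2% lower (51.5% in all), with a median log2 difference of 0.29. At Day 15, 39 were higher in +Fgf and 1 (Npm1) was lower, where 38.0% of all genes were higher and 30.6% lower (68.7% in all), with a median of 0.30, and 32 of the 47 genes (68.1%) were higher in +Fgf at both days, against 17.8% of all tested genes. RNA quality differed in the Day 15 comparison as well, since RIN was lowest in the Day 15 +Fgf libraries. With RIN as a covariate, 35 of the 47 genes were higher in +Fgf at Day 15 and 0 lower, with a median of 0.43. The same fit called 25.7% of all tested genes higher and 20.2% lower. The other values of this comparison are from the fit without RIN. After Myc (3.42) and Mycn (0.77), the largest gaps at Day 12 were those of Rrp12, 0.81 (SE 0.07, adjusted p = 9.12e-08), and Gar1. At Day 15, Mycn had the largest gap, 1.40 (SE 0.09, adjusted p = 8.66e-10), followed by Gar1, Heatr1 (0.80) and Myc (0.79). Rrp9, Gnl3, Wdr12 and Nip7 did not pass at either day, with differences between -0.10 and 0.11. Only the nucleolar proteins had a median below 0 at Day 15, -0.10.

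**Figure D4:**
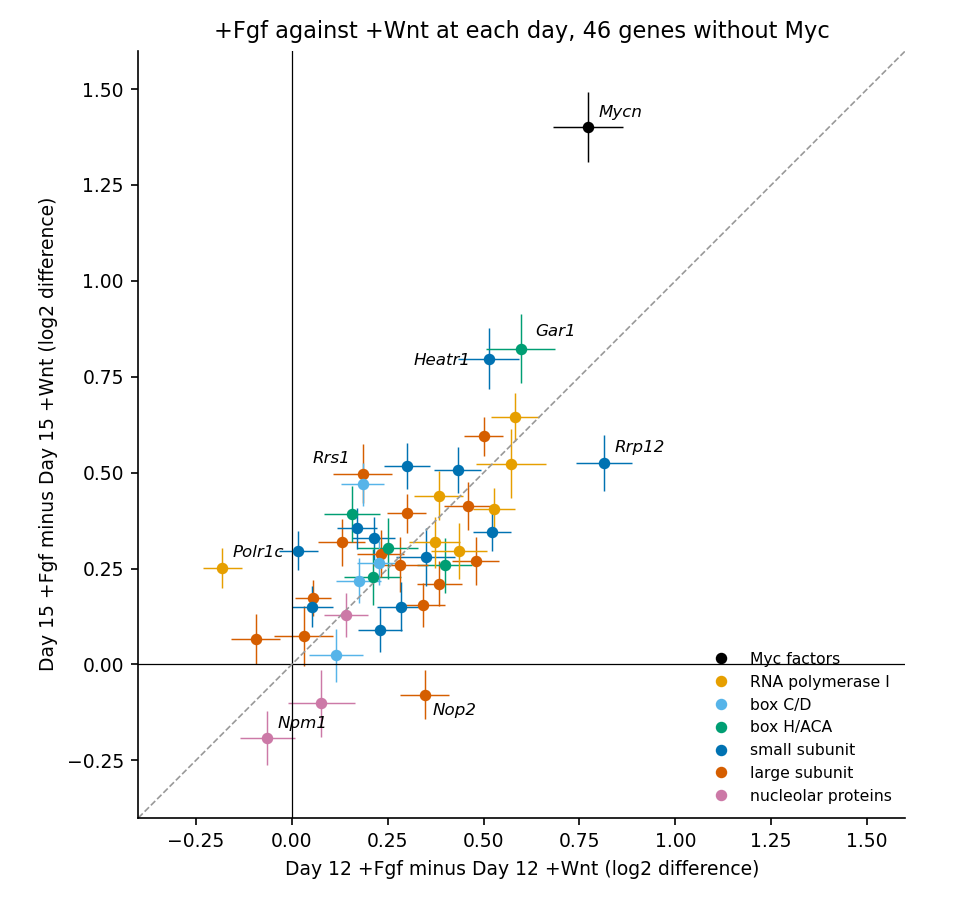
Log2 difference between +Fgf and +Wnt at Day 12 (horizontal) and at Day 15 (vertical) for 46 genes, Myc left out for scale; bars are SE from limma, colours are roles, and the dashed line marks equal differences. Most genes lie to the upper right of 0 near the dashed line, Mycn stands highest at 1.40 and Polr1c lies furthest left of 0. Npm1, Gnl3 and Nop2 are among those below 0 at Day 15.

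The test of whether the change from Day 12 to Day 15 differed between the stimulations called 11 of the 47 genes (7 with a higher value in +Fgf, 4 with a lower), against 47.9% of all tested genes (27.0% higher and 20.9% lower). Besides Myc and Mycn (0.63), they were Polr1c, 0.43 (SE 0.07, adjusted p = 0.000134), Nop2, -0.42 (SE 0.09, adjusted p = 0.00113), and Utp18, Nop58, Rrs1, Rrp12, Heatr1, Bysl and Wdr75, with differences of 0.28, 0.29, 0.31, -0.29, 0.28, -0.18 and 0.22. The median over the 47 genes was 0.04. The count was 7 without Day 12 +Wnt replicate 2, without Day 15 +Wnt replicate 1 or without Day 15 +Wnt replicate 2. The split of 7 and 4 became 5 and 6 with median-of-ratios scaling and 4 and 6 in edgeR's count test. With RIN as a covariate it moved the other way, to 10 and 2, with a median of 0.18. That fit called 15.8% of all tested genes higher and 12.0% lower.

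Genes of the same pathway that are not among the 47 were counted from lists of their own, also chosen with earlier results of these data known. Of 63 other ribosome biogenesis genes, 55, 60, 54 and 57 fell in the 4 steps (Day 12 +Fgf and Day 12 +Wnt against Day 10, then Day 15 against Day 12 in +Fgf and in +Wnt), and 1, 0, 1 and 0 rose. At Day 12 and Day 15, 39 and 48 of them were higher in +Fgf and 1 and 2 were lower. Of all tested genes, 27.8, 29.6, 29.9 and 35.5% fell and 27.9, 30.6, 27.2 and 32.5% rose in the 4 steps. At Day 12 and Day 15, 26.3 and 38.0% of all tested genes were higher in +Fgf and 25.2 and 30.6% lower. The same shares apply to the lists below. Wdr46, the gene of a small subunit processome protein, went from 91.2 ± 4.46 CPM at Day 10 to 57.0 ± 4.90 in Day 12 +Fgf, 37.5 ± 0.229 in Day 12 +Wnt, 28.7 ± 1.09 in Day 15 +Fgf and 23.1 ± 0.412 in Day 15 +Wnt. Of 26 other RNA polymerase I and III genes, 15, 16, 15 and 20 fell and 0, 1, 0 and 0 rose, with smaller medians of -0.19, -0.28, -0.17 and -0.23. Ubtf, the gene of the RNA polymerase I factor UBF, went from 317 ± 4.94 to 200 ± 2.75 CPM in Day 15 +Wnt. Polr3g, a polymerase III subunit gene, ended highest in Day 15 +Wnt among the stimulated groups, at 39.3 ± 2.68 CPM against 23.2 ± 1.71 CPM in Day 15 +Fgf.

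Ribosomal protein genes, the parts of the finished ribosome, had smaller median differences than the factors that assemble it. The 78 genes found summed to 85.0, 89.6, 85.5 and 76.8% of Day 10 in the 4 stimulated groups, in the same order as before. In the steps, 68, 50, 13 and 58 of the 78 fell and 0, 0, 16 and 0 rose, with medians of -0.24, -0.19, 0.01 and -0.21, and at Day 12 none was higher in +Fgf and 18 were lower, whereas at Day 15 53 were higher and 3 lower. From Day 12 to Day 15 in +Fgf, 29.9% of all tested genes fell and 27.2% rose. For the ribosomal protein genes, the change between these days was higher in +Fgf than in +Wnt for 50 of the 78 and lower for 0. The 47 genes gave 7 and 4, and all tested genes 27.0 and 20.9%. These counts moved with the scaling: under quantile normalization 45, 21, 10 and 38 fell and 1, 12, 30 and 8 rose in the 4 steps. Many ribosomal protein genes have processed copies, which the counting could have credited with their reads.

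Of 12 other factors of the Myc network, 6, 5, 0 and 5 fell in the 4 steps and 2, 3, 4 and 1 rose. Over all tested genes, 27.8, 29.6, 29.9 and 35.5% fell and 27.9, 30.6, 27.2 and 32.5% rose in these steps. Mycl1, the third Myc paralogue, was at 59.5 ± 0.707, 55.6 ± 8.87, 54.3 ± 0.931, 117 ± 3.56 and 34.6 ± 4.54 CPM in the 5 groups, in the order used for Myc, so like Mycn it was highest in Day 15 +Fgf. Mxd3 and Mxi1 encode partners of Max that repress, and they rose from 6.03 ± 0.904 and 39.0 ± 2.76 CPM at Day 10 to 20.2 ± 0.983 and 87.4 ± 5.02 CPM in Day 15 +Fgf. Of 20 other Myc target genes, 13, 17, 16 and 16 fell and 1, 0, 4 and 4 rose. Odc1, which encodes the first enzyme of polyamine synthesis, was at 505 ± 4.38 CPM at Day 10, 634 ± 20.5 in Day 12 +Fgf, 309 ± 5.73 in Day 12 +Wnt, 447 ± 7.76 in Day 15 +Fgf and 198 ± 15.1 in Day 15 +Wnt, and the groups did not overlap. Of 11 p53 target genes, 10, 10, 6 and 5 fell and 1, 1, 1 and 2 rose, and their sum in Day 12 +Fgf and Day 12 +Wnt was 40.8 and 54.9% of Day 10. Ccng1, the gene of cyclin G1, was at 781 ± 15.8 CPM at Day 10 and 169 ± 3.71 CPM in Day 15 +Fgf.

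The summed level of proliferation markers in Day 15 +Fgf stood near that of Day 10, with single markers on either side. The sum of 9 markers was 117 and 94.7% of Day 10 in Day 12 +Fgf and Day 12 +Wnt, 101% in Day 15 +Fgf and 41.1% in Day 15 +Wnt, while the 45 genes stood at 48.3 and 43.9% at Day 15. From Day 12 to Day 15, 9 of 9 fell in +Wnt, and in +Fgf 6 fell and 1 rose. Of all tested genes, 35.5% fell in +Wnt, and in +Fgf 29.9% fell and 27.2% rose. Mcm5, a subunit gene of the replicative helicase and the marker with the largest F, went from 359 ± 8.09 CPM at Day 10 to 169 ± 4.61 in Day 15 +Fgf and 77.2 ± 6.33 in Day 15 +Wnt. Mki67, the marker that rose in +Fgf and named after its values were seen, was at 246 ± 29.4 CPM at Day 10, 490 ± 39.3 in Day 15 +Fgf tissue and 149 ± 6.86 in Day 15 +Wnt tissue. Neuron markers (7 genes) summed to 101 ± 32.7 CPM at Day 10 and to 1583 ± 40.5 and 1307 ± 152 CPM in Day 15 +Fgf and Day 15 +Wnt. Single neuron markers differed between the Day 15 groups. In +Fgf 4 of the 7 were higher and 1 lower (limma), with log2 differences from -0.97 to 6.93. Mesenchyme and neural crest markers (6 genes, 4 of them tested) summed to 48.0 ± 5.72, 48.2 ± 6.60 and 179 ± 16.8 CPM in Day 10, Day 15 +Fgf and Day 15 +Wnt. Against Day 10, 2 of the 4 were higher and 2 lower in Day 15 +Fgf (limma), with log2 differences from -0.63 to 2.02. Of all tested genes, 36.2% were higher and 36.4% lower there. The part of all these cell types in the changes of the 47 genes was not tested.

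**Figure D5:**
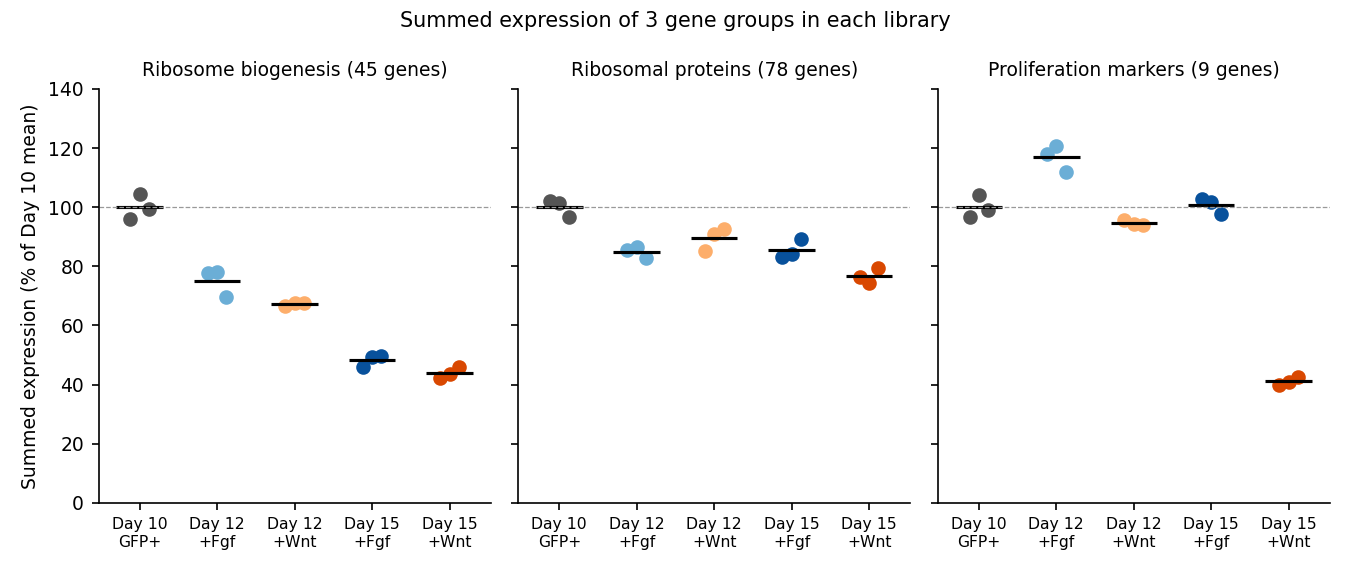
Summed CPM of the 45 ribosome biogenesis genes, of 78 ribosomal protein genes and of 9 proliferation markers in each library (points) as percent of the Day 10 mean, with group means as bars. The 45 genes fall to 43.9% in Day 15 +Wnt and 48.3% in Day 15 +Fgf, ribosomal protein genes lie between 76.8 and 89.6% in the 4 stimulated groups, and the proliferation markers lie at 41.1% in Day 15 +Wnt.

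Exons of 17 of the 47 genes overlap those of a gene on the opposite strand, and the strand setting of the counting is not given in the sources used here. Of the other 30 genes, 25, 28, 27 and 27 fell in the 4 steps, and 23 and 26 were higher in +Fgf at Day 12 and Day 15.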

How the data were processed

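RNA-Seq libraries of 15 samples were used, 3 for each of 5 groups, and every library was assigned to its group from its title. Total RNA (700 ng) had been converted with a stranded mRNA kit. Per the labels (the submitters' processing notes), the authors used bcl2fastq 1.8.4, FastQC 0.10.1, TopHat2 2.0.8b, Cufflinks 2.1.1, Cuffdiff and edgeR 3.2.4 with mm10. The strand setting of the counting and the normalization option are not given in the sources used here.

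The deposited values are a normalized signal per gene, which the authors call CPM. Columns sum to between 936418 and 1075448, and all values above 0 (100%, within 0.02 of a whole number) were whole multiples of 1 read, worth between 0.0620 and 0.0764. Tables per sample and of all samples agreed to a relative difference of 7.8e-09. Replicates differed by more than sampling noise (chi-square per degree of freedom 2.68 to 8.60), so no library was counted as deposited 2 times.

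Genes at 1 CPM of the column total or more in at least 3 libraries were tested with limma 3.58.1 in R 4.3.3 on log2(value + 0.3), with 5 group means, a trend in the moderation and Benjamini-Hochberg adjustment. Such differences understate changes of low genes. The count test, edgeR 4.0.16 (quasi-likelihood) on the recovered reads, called 7764, 8330, 7842, 9262, 7132 and 9318 of all genes in the 6 comparisons between neighbouring days or both stimulations, in the order of the text. The procedure was tested on simulated data.

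Alternatives were pseudocounts of 0.05 and 1, no filter and a filter of 10 CPM, quantile normalization, median-of-ratios scaling (DESeq2 1.42.0), the count test, RIN as a covariate, the replicate number as a block, and leaving out each library. The members and the lists of other genes were chosen with earlier results of these data known, so their counts are descriptions. Values in every library are given for Myc, Mycn, the gene of each role with the largest F statistic, and the 2 largest increases and decreases of the group in each of the 6 comparisons; Nop10 and, of the markers, Mki67 were added after their values were seen. Of each other list, at most 3 genes with the largest F are named. In its list, Mycl was matched only under the symbol Mycl1, and Rpl34 (listed with a pseudogene) was not matched by symbol. Positions are from GENCODE for GRCm38 (mm10), and promoter windows from RefSeq. Python 3.11.15, NumPy 2.4.6, pandas 2.3.3 and matplotlib 3.10.9 were used.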

Additional observations from a re-analysis of the deposited data

Results flagged for a closer look

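In 11 of the 47 genes, the log2 change from Day 12 to Day 15 differed between +Fgf and +Wnt tissue by the test of the difference itself (limma, adjusted p under 0.05). Of all tested genes, 47.9% passed the same test. In Myc, which fell in this interval in +Fgf tissue, the difference was -2.63, and in Mycn, which rose there, it was 0.63. Differences above 0, where the fall was smaller in +Fgf, were found for Polr1c (0.43), Rrs1 (0.31), Nop58 (0.29), Utp18 (0.28), Heatr1 (0.28) and Wdr75 (0.22). Those below 0, where the fall was larger in +Fgf, were Nop2 (-0.42), Rrp12 (-0.29) and Bysl (-0.18). Those of Bysl, Heatr1, Wdr75, Rrp12 and Rrs1 were lost under 12, 13, 14, 10 and 6 of the 24 alternatives, and those of Nop2 and Utp18 under 1 each. All groups held 3 libraries, so no library was tested for standing apart.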

How the results depend on the processing

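The 47 genes gave 357 differences past the threshold over the 9 tests, and 24 alternatives (15 of them leaving out 1 library) gave 8568 values, of which 1 changed sign and 156 were no longer past it. The value that changed sign was Npm1 at Day 15, +Fgf against +Wnt, from -0.19 to 0.048 with RIN as a covariate; the cause was not tested. The number of genes whose change from Day 12 to Day 15 differed, 11, lay between 7 and 13 when a library was left out and between 9 and 12 otherwise, and the other counts stayed within 1.5 times. With RIN as a covariate, 34 in place of 45 genes passed from Day 12 to Day 15 in +Fgf (median -0.39 in place of -0.59), and 25.9 in place of 57.1% of all tested genes. Over the alternatives, 41 to 43 genes passed in Day 12 +Fgf against Day 10, 45 to 46 in Day 12 +Wnt against Day 10, 34 to 46 and 44 to 46 from Day 12 to Day 15 in +Fgf and +Wnt, 30 to 39 and 34 to 41 between the stimulations at Day 12 and Day 15, 45 to 46 in Day 15 +Fgf and 46 to 47 in Day 15 +Wnt against Day 10. Quantile normalization gave 31 genes higher and 3 lower in +Fgf at Day 15, and moved the median of all genes furthest in Day 15 +Wnt against Day 10, by -0.10.

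Replicate numbers are shared between groups but did not pair the libraries: deviations from the group means correlated at over 0.1 in 7 of 30 pairs of libraries with the same number (median -0.01, range -0.25 to 0.24), and 6 of 15 libraries were closest to their own number. With the replicate number as a block, 42, 45, 45, 44, 36 and 40 genes passed in the 6 comparisons, 46 and 47 in Day 15 against Day 10, and 9 in the difference of changes.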
